A study of Moricandia moricandioides and Moricandia arvensis and Moricandia suffruticosa with 11 samples.

Results

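Among the 33602 Arabidopsis gene models of the table, 29 stood out by a clear presence in leaves of *M. arvensis* and of *M. moricandioides* and a low level in leaves of *M. suffruticosa*. These 29 transcripts were chosen by their measured values. The mean abundance had to be at least 10 rpm, the deposited unit of reads scaled to the counted reads of a library, in the 4 *M. arvensis* plants and in the 4 *M. moricandioides* plants. The mean of the 3 *M. suffruticosa* plants had to be at most 25 percent of each of these means. Of all models, 7524 met the floor of 10 rpm in both other species and carried none of the descriptions that were left out, which named a cytochrome P450, a ribosomal protein, disease resistance or heat shock. No transcript that met the thresholds carried such a description. Because the levels in *M. suffruticosa* against the other species chose the transcripts, they are given here as a description from which nothing is inferred.

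The series compared the leaf transcriptomes of *M. suffruticosa* and *M. arvensis* line MOR1, which are C3–C4 intermediate plants, with that of their C3 relative *M. moricandioides*. Intermediate plants release and refix photorespiratory CO2 in the bundle sheath, whereas a C3 leaf lacks this shuttle. Each species came from a single seed source: seeds of *M. suffruticosa* came from the Royal Botanic Gardens in Kew, line MOR1 from the IPK Gatersleben, and seeds of *M. moricandioides* from the Botanic Gardens in Osnabrück. Mature leaves were frozen early in the light period, before flowering, from plants that shared a climate chamber setting. Each species is represented by 1 line, so a difference between species cannot be told apart from a difference between these lines.

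Several of these transcripts encode proteins of the plant cell wall, the matrix of cellulose, hemicellulose and pectin around each cell. Enzymes secreted into this matrix trim the sugar side chains of pectin and xylan or remove methyl groups from pectin, extensins form a protein network within it, and other wall proteins inhibit or degrade the enzymes and polymers of invading fungi. The remaining transcripts encode oxidoreductases, enzymes of sterol, sugar and nucleotide metabolism, regulators of vesicle traffic and signalling, and proteins without a known function.

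Reads counted per library ranged from 10987959 to 14144453 in *M. suffruticosa*, from 11216204 to 13422102 in *M. arvensis* and from 12259898 to 14865167 in *M. moricandioides*. Reads were assigned to Arabidopsis coding sequences, and 82.1% ± 2.32 (SD, n = 3) of the reads were mapped in *M. suffruticosa*, 83.1% ± 1.87 (n = 4) in *M. arvensis* and 85.8% ± 0.312 in *M. moricandioides*, where 3 plants had a listed share. A transcript that is less abundant and one whose sequence is less like the Arabidopsis sequence cannot be told apart by such counts, and reads from similar copies of a gene may have been assigned to one another's models. Some libraries lay closer together than others. The log2 abundances of *M. suffruticosa* plants 6 and 7 correlated at 0.994 and those of *M. arvensis* plants 13 and 15 at 0.993, whereas every other pair within a species reached at most 0.976. Leaf identity was checked on marker transcripts: the summed level of RBCS1A, CAB1 and RCA was 23319 to 26191 rpm in *M. suffruticosa*, 24388 to 33359 rpm in *M. arvensis* plants and 31778 to 38377 rpm in *M. moricandioides*, with CAB1 listed at 0 in every library. Summed markers of flowers and of seeds stayed at or below 0.373 rpm in every library, those of roots at or below 17.5 rpm and those of dividing cells at or below 8.24 rpm. Vascular markers summed to 145 to 363 rpm in *M. suffruticosa*, 195 to 336 rpm in *M. arvensis* plants and 125 to 218 rpm in *M. moricandioides*. Guard cell markers, of which KAT1 was listed at 0, summed to 34.3 to 41.5 rpm in *M. suffruticosa*, 41.6 to 75.2 rpm in *M. arvensis* plants and 27.1 to 31.1 rpm in *M. moricandioides*. Epidermis markers, of which ATML1 was listed at 0, summed to 214 to 237 rpm in *M. suffruticosa*, 95.6 to 166 rpm in *M. arvensis* plants and 141 to 240.1 rpm in *M. moricandioides*. Most of this sum came from FDH, with means of 224, 126 and 173 rpm in these species. PDF1 was ordered otherwise, with means of 1.97, 0.469 and 16.3 rpm. The part of cell types in the levels below was not tested.

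The level left in *M. suffruticosa* covered a wide range. Its mean was between 0.725% and 24.6% of the lower of the other means, with a median of 13.7%. For 7 transcripts less than 5% was left, for 5 transcripts 5% to 12.5%, and for 17 transcripts 12.5% or more. Mean abundance over the 29 transcripts ranged from 0.165 to 44.0 rpm in *M. suffruticosa*, from 12.8 to 1029.7 rpm in *M. arvensis* and from 10.6 to 326 rpm in *M. moricandioides*. These rpm values are not corrected for transcript length and are therefore compared between plants and not between genes. In 26 of the 29 transcripts every *M. suffruticosa* plant lay below every other plant, which held for 5.7% of the 15570 transcripts that passed the filter on low counts. On the log2 scale of the fit, the median difference of the 29 transcripts was -3.05 (range -7.03 to -2.07) against *M. moricandioides* and -3.35 (range -7.01 to -2.14) against *M. arvensis*, beside medians of 0.01 and -0.01 over all tested transcripts. At an adjusted p of 0.01 or less in edgeR, 24 of the 29 were lower against *M. moricandioides* and 23 against *M. arvensis*, where 8.82% and 9.4% of all tested transcripts were lower. These counts are no test of the pattern, since the same comparisons chose the transcripts. In RNA of whole leaves, fewer cells of a type and less RNA per cell cannot be told apart.

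**Figure D1:**
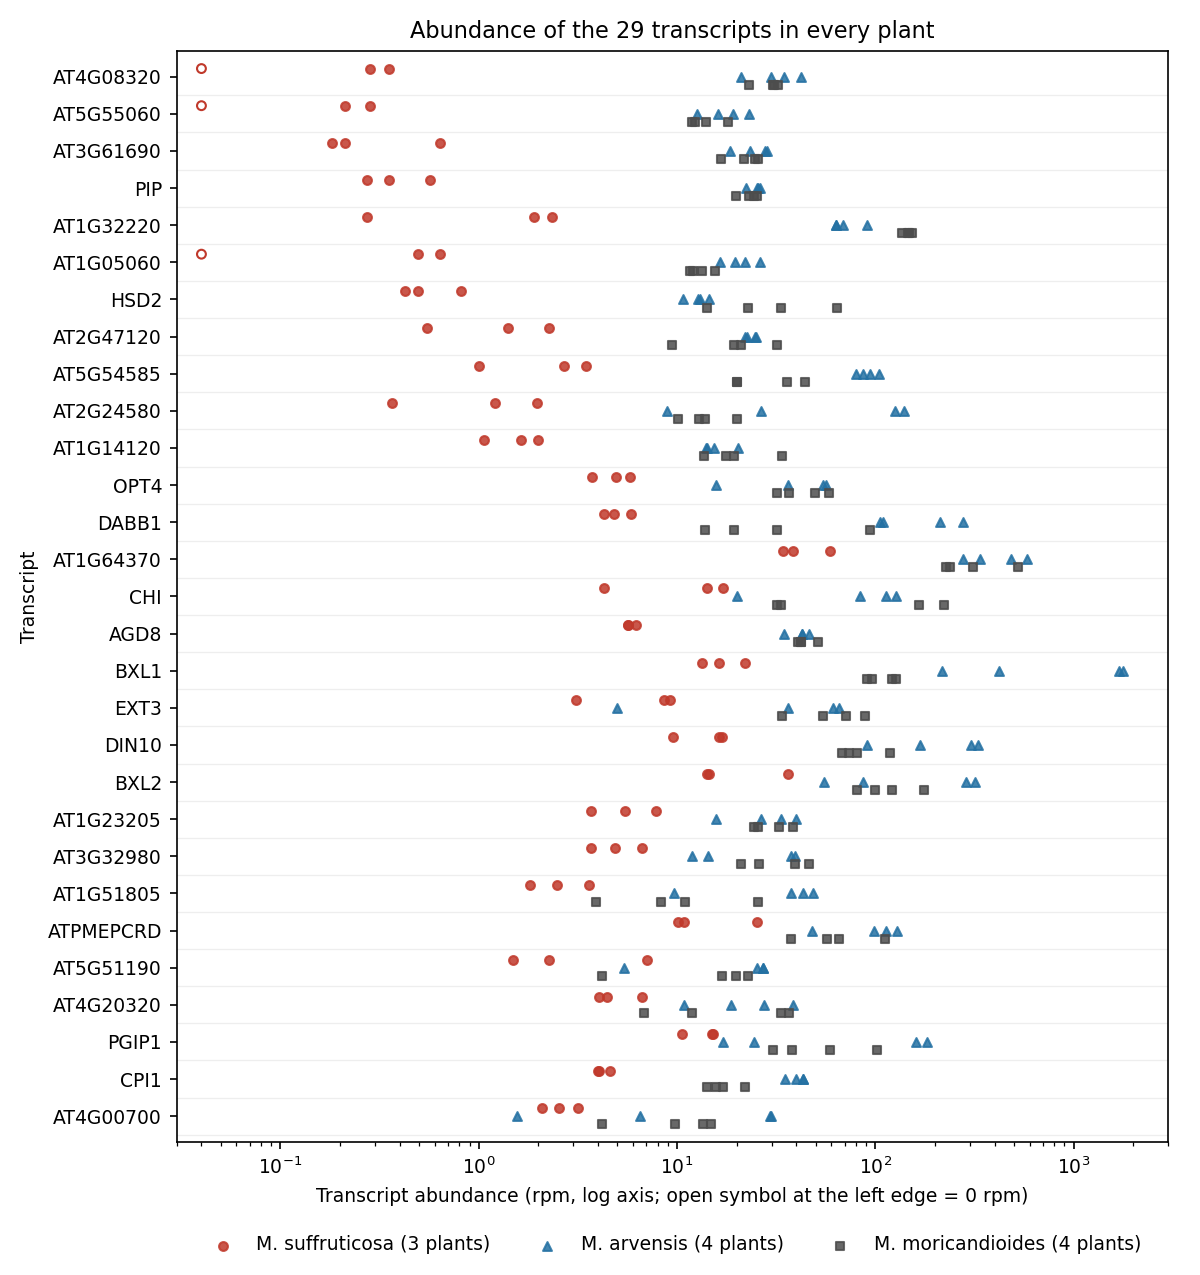
Abundance of the 29 transcripts in every plant, in rpm on a log axis, with circles for *M. suffruticosa* (3 plants), triangles for *M. arvensis* (4 plants) and squares for *M. moricandioides* (4 plants), ordered from the transcript with the smallest share left in *M. suffruticosa* at the top (0.725%) to the largest at the bottom (24.6%). Open circles at the left edge mark 0 rpm, and the circles reach the symbols of the other species only for EXT3, AT5G51190 and AT4G00700.

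The largest set consisted of 8 transcripts for proteins of the cell wall or the extracellular space. Their mean level in *M. suffruticosa* was between 13.7% and 23.7% of the lower of the other means, so that none was near 0 there. The sets used here follow the annotated roles and were drawn up after the transcripts had been seen. BXL1 (AT5G49360) encodes a bifunctional xylosidase and arabinofuranosidase that in Arabidopsis trims the arabinan side chains of pectin. Its abundance, given here and below in the order of the plant numbers (plants 6, 7 and 8 of *M. suffruticosa*, plants 9, 12, 13 and 15 of *M. arvensis*, plants 6, 8, 12 and 15 of *M. moricandioides*), was 16.3, 22.1 and 13.4 rpm in *M. suffruticosa* plants, 422, 218, 1694 and 1785 rpm in *M. arvensis* plants and 127, 122, 91.3 and 96.2 rpm in *M. moricandioides* plants. The *M. suffruticosa* plants were far below all others, and within *M. arvensis* the close pair of plants 13 and 15 stood well above plants 9 and 12. BXL2 (AT1G02640), a relative of BXL1 annotated to the cell wall, had 14.2, 14.5 and 36.5 rpm in *M. suffruticosa* plants, 55.2, 86.6, 287 and 317 rpm in *M. arvensis* plants and 99.9, 176, 80.5 and 121 rpm in *M. moricandioides* plants. Here plant 8 of *M. suffruticosa* was the highest of its species, and no plant reached the other species. Both other genes of the table whose short description names a beta-xylosidase were listed at 0 in all 11 libraries. Relatives described in other words were not searched for.

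Among the transcripts related to pectin, ATPMEPCRD (AT2G43050), annotated as a pectin methylesterase that removes methyl groups from pectin, had 10.9, 10.1 and 25.3 rpm in *M. suffruticosa* plants, 47.8, 129, 98.1 and 113 rpm in *M. arvensis* plants and 112, 37.5, 57.3 and 65.9 rpm in *M. moricandioides* plants. The smallest gap was that between plant 8 of *M. suffruticosa* and plant 8 of *M. moricandioides*, and the species did not overlap. AT1G23205 belongs to the family of invertase and pectin methylesterase inhibitors and ranged over 3.68 to 7.83 rpm in *M. suffruticosa* plants, 15.7 to 40.0 rpm in *M. arvensis* plants and 24.4 to 38.5 rpm in *M. moricandioides* plants. PGIP1 (AT5G06860), a leucine-rich repeat protein of the wall that in Arabidopsis inhibits fungal polygalacturonases, had 15.1, 15.2 and 10.6 rpm in *M. suffruticosa* plants, 17.1, 24.4, 161 and 182 rpm in *M. arvensis* plants and 59.2, 37.9, 102 and 30.5 rpm in *M. moricandioides* plants. Plants 9 and 12 of *M. arvensis* were only a little above the *M. suffruticosa* plants, while plants 13 and 15 were highest of all. Its neighbour PGIP2 was listed at 0 in every library.

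EXT3 (AT1G21310) encodes an extensin, a structural glycoprotein that is cross-linked into the wall. It had 8.57, 9.19 and 3.09 rpm in *M. suffruticosa* plants, 5.01, 36.3, 61.4 and 65.9 rpm in *M. arvensis* plants and 33.8, 88.9, 71.2 and 54.6 rpm in *M. moricandioides* plants. The species overlapped, because plant 9 of *M. arvensis* lay within the range of *M. suffruticosa*. CHI (AT2G43570), a putative chitinase of the apoplast, had 17.1, 14.2 and 4.28 rpm in *M. suffruticosa* plants, 20.0, 83.8, 114 and 128 rpm in *M. arvensis* plants and 167, 33.5, 32.0 and 221 rpm in *M. moricandioides* plants. Both *M. moricandioides* and *M. arvensis* varied strongly between plants, yet their lowest plants stayed above the highest *M. suffruticosa* plant. AT3G32980, a peroxidase annotated to the cell wall and the vacuole, ranged over 3.68 to 6.64 rpm in *M. suffruticosa* plants, 12.0 to 39.5 rpm in *M. arvensis* plants and 21.0 to 46.1 rpm in *M. moricandioides* plants.

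The second set held 6 transcripts for oxidoreductases and enzymes of sterol metabolism, and 5 of them were among the 11 with the least left in *M. suffruticosa*. AT1G32220 encodes a protein with a Rossmann fold annotated to thylakoids and plastoglobules, the lipid bodies of the chloroplast. It had 2.34, 1.91 and 0.273 rpm in *M. suffruticosa* plants, 91.3, 63.7, 63.3 and 68.4 rpm in *M. arvensis* plants and 153, 136, 148 and 146 rpm in *M. moricandioides* plants. The *M. suffruticosa* plants were close to 0, and the *M. moricandioides* plants lay above all *M. arvensis* plants. HSD2 (AT3G47350), a putative hydroxysteroid dehydrogenase, had 0.425, 0.495 and 0.819 rpm in *M. suffruticosa* plants, 12.8, 14.5, 13.1 and 10.7 rpm in *M. arvensis* plants and 14.2, 63.9, 22.8 and 33.4 rpm in *M. moricandioides* plants. No *M. suffruticosa* plant reached 1 rpm, and 22 reads were counted over the 3 libraries. AT2G47120, another protein with a Rossmann fold, ranged over 0.546 to 2.27 rpm in *M. suffruticosa* plants, 22.0 to 25.1 rpm in *M. arvensis* plants and 9.42 to 32.1 rpm in *M. moricandioides* plants.

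AT2G24580, an FAD-dependent oxidoreductase annotated with sarcosine oxidase activity, had 1.20, 1.98 and 0.364 rpm in *M. suffruticosa* plants, 8.92, 26.6, 126 and 140.3 rpm in *M. arvensis* plants and 12.8, 20.1, 10.1 and 13.8 rpm in *M. moricandioides* plants. Plants 13 and 15 of *M. arvensis* were far above every other plant, whereas plant 9 of that species lay below the *M. moricandioides* plants. AT1G14120, an iron-dependent oxygenase, ranged over 1.06 to 2.00 rpm in *M. suffruticosa* plants, 14.0 to 20.3 rpm in *M. arvensis* plants and 13.7 to 34.0 rpm in *M. moricandioides* plants. CPI1 (AT5G50375) encodes cyclopropyl isomerase, which opens a ring in the precursors of plant sterols. It had 4.04, 4.60 and 4.00 rpm in *M. suffruticosa* plants, 35.1, 40.0, 43.3 and 43.0 rpm in *M. arvensis* plants and 22.2, 17.0, 14.2 and 15.7 rpm in *M. moricandioides* plants. Each species formed a tight and separate cluster, with *M. suffruticosa* lowest and *M. arvensis* highest.

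In the third set, 5 transcripts encode enzymes of nucleotide, peptide and sugar metabolism and a transporter. AT3G61690, annotated as a nucleotidyltransferase, had 0.637, 0.212 and 0.182 rpm in *M. suffruticosa* plants, 18.5, 23.4, 27.8 and 28.6 rpm in *M. arvensis* plants and 25.6, 24.8, 21.9 and 16.7 rpm in *M. moricandioides* plants, and 14 reads were counted over the *M. suffruticosa* libraries. Proline iminopeptidase (PIP, AT2G14260), which removes proline from the start of peptides and is annotated to the chloroplast, had 0.566, 0.353 and 0.273 rpm in *M. suffruticosa* plants, 22.4, 25.2, 26.4 and 25.8 rpm in *M. arvensis* plants and 23.0, 25.3, 19.9 and 24.5 rpm in *M. moricandioides* plants. For both transcripts the *M. suffruticosa* plants were below 1 rpm, and the other species overlapped each other. AT4G20320, a CTP synthase, the enzyme that makes cytidine triphosphate, ranged over 4.04 to 6.64 rpm in *M. suffruticosa* plants, 10.8 to 38.6 rpm in *M. arvensis* plants and 6.81 to 36.7 rpm in *M. moricandioides* plants.

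DIN10 (AT5G20250), a member of the raffinose synthase family that in Arabidopsis is induced in the dark, had 16.4, 16.9 and 9.56 rpm in *M. suffruticosa* plants, 167, 91.1, 304 and 329.8 rpm in *M. arvensis* plants and 119, 73.7, 81.2 and 68.2 rpm in *M. moricandioides* plants. The *M. suffruticosa* plants were low throughout, and plants 13 and 15 of *M. arvensis* were highest. OPT4 (AT5G64410), a transporter of short peptides, had 4.96, 3.75 and 5.82 rpm in *M. suffruticosa* plants, 15.7, 36.2, 54.7 and 56.2 rpm in *M. arvensis* plants and 32.0, 58.5, 49.8 and 36.6 rpm in *M. moricandioides* plants. Plant 9 of *M. arvensis* was lowest outside *M. suffruticosa* and still above all plants of that species.

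The fourth set held 6 transcripts for proteins of vesicle traffic, signalling, defence and regulation. AT4G08320, which contains tetratricopeptide repeats, a motif that binds other proteins, had the smallest share left in *M. suffruticosa*. It had 0.283, 0.353 and 0 rpm in *M. suffruticosa* plants, 21.1, 34.9, 42.1 and 29.7 rpm in *M. arvensis* plants and 32.4, 30.8, 23.2 and 30.6 rpm in *M. moricandioides* plants. Only 9 reads were counted over the 3 *M. suffruticosa* libraries, against 1569 over the *M. arvensis* libraries and 1620 over the *M. moricandioides* libraries. AGD8 (AT4G17890) encodes a protein that activates GTP hydrolysis by ARF, a small GTPase of vesicle budding. It had 5.66, 6.22 and 5.64 rpm in *M. suffruticosa* plants, 34.7, 43.0, 42.7 and 46.5 rpm in *M. arvensis* plants and 40.6, 51.2, 42.4 and 42.0 rpm in *M. moricandioides* plants. All plants of *M. suffruticosa* were alike, and the plants of the other species overlapped at a much higher level.

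DABB1 (AT1G51360), annotated with a role in defence against fungi in Arabidopsis, had 5.88, 4.81 and 4.28 rpm in *M. suffruticosa* plants, 276, 212, 109.6 and 106 rpm in *M. arvensis* plants and 94.0, 19.5, 31.9 and 13.8 rpm in *M. moricandioides* plants. The *M. suffruticosa* plants stayed low, and every *M. arvensis* plant was above every *M. moricandioides* plant. AT5G51190, an ethylene response factor, had 2.27, 1.48 and 7.10 rpm in *M. suffruticosa* plants, 5.40, 27.3, 25.3 and 27.2 rpm in *M. arvensis* plants and 16.9, 22.8, 4.20 and 19.8 rpm in *M. moricandioides* plants. Plant 9 of *M. arvensis* and plant 12 of *M. moricandioides* overlapped with *M. suffruticosa*. AT1G51805, a leucine-rich repeat protein kinase, ranged over 1.82 to 3.61 rpm in *M. suffruticosa* plants, 9.70 to 48.3 rpm in *M. arvensis* plants and 3.91 to 25.7 rpm in *M. moricandioides* plants. AT4G00700, which carries a calcium- and lipid-binding domain, ranged over 2.09 to 3.18 rpm in *M. suffruticosa* plants, 1.57 to 29.7 rpm in *M. arvensis* plants and 4.20 to 14.9 rpm in *M. moricandioides* plants, so that plant 9 of *M. arvensis* was below all *M. suffruticosa* plants.

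Finally, 4 transcripts carried no description. AT5G55060 had 0.283, 0.212 and 0 rpm in *M. suffruticosa* plants, 12.6, 19.2, 23.2 and 16.0 rpm in *M. arvensis* plants and 14.0, 18.0, 12.4 and 11.9 rpm in *M. moricandioides* plants, and AT1G05060 had 0.496, 0.636 and 0 rpm in *M. suffruticosa* plants, 16.5, 22.1, 26.2 and 19.6 rpm in *M. arvensis* plants and 12.1, 11.6, 15.6 and 13.3 rpm in *M. moricandioides* plants. Neither reached 1 rpm in any *M. suffruticosa* plant. AT5G54585 had 3.47, 2.69 and 1.00 rpm in *M. suffruticosa* plants, 86.5, 104, 94.2 and 80.2 rpm in *M. arvensis* plants and 44.1, 20.0, 36.1 and 20.0 rpm in *M. moricandioides* plants. Again the species formed separate clusters, with *M. arvensis* highest. AT1G64370 had 38.3, 34.2 and 59.3 rpm in *M. suffruticosa* plants, 278, 337, 481 and 584 rpm in *M. arvensis* plants and 238, 228, 525 and 313 rpm in *M. moricandioides* plants. A total of 1677 reads was counted for it in *M. suffruticosa*, the most of all 29 transcripts. In plant 8 of *M. suffruticosa* no read was counted for AT4G08320, AT5G55060 and AT1G05060, which at the depth of that library allows up to 0.273 rpm and covers counting error only.

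The transcripts nearest to the threshold lay close to those that missed it. Just inside, PGIP1 had 23.7% of the lower mean left, CPI1 24.4% and AT4G00700 24.6%. Just outside, the leucine-rich repeat protein AT1G49750 had 25.7% left, with means of 19.8 rpm in *M. suffruticosa*, 77.1 rpm in *M. arvensis* plants and 113 rpm in *M. moricandioides*, followed by AT3G56360 at 25.8% and by HB30, a homeobox protein, at 26.2%. Leaving out single plants changed the set at its edge, and 22 of the 29 transcripts met the thresholds whichever plant was left out. The other 7 were AT1G51805, ATPMEPCRD, AT4G00700, AT4G20320, PGIP1, CPI1 and AT5G51190.

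Median spread among the plants of *M. arvensis* and of *M. moricandioides* was smaller for the transcripts that were nearly absent from *M. suffruticosa* than for those of which most was left. The 7 transcripts with less than 5% left had median coefficients of variation of 19.0% in *M. arvensis* and 14.1% in *M. moricandioides*. The 17 transcripts with 12.5% or more left had medians of 50.0% in *M. arvensis* and 42.4% in *M. moricandioides*. In between, the 5 transcripts with 5% to 12.5% left had 18.5% in *M. arvensis* and 40.1% in *M. moricandioides*. Over the 7524 transcripts that met the floor, the medians were 19.3% in *M. arvensis* and 16.2% in *M. moricandioides*. Within *M. suffruticosa* the order was the other way, with medians of 74.1% for the class with less than 5% left, 52.9% for the middle class and 29.4% for the class with 12.5% or more left, beside 11.7% over the transcripts at the floor. In the class with less than 5% left, 7 to 63 reads were counted per transcript over the 3 *M. suffruticosa* libraries. Counting error therefore enters this spread, which cannot be read as a difference between plants alone. The division into these 3 classes was made after the values had been seen, and the differences were not tested. In 18 of the 29 transcripts plants 13 and 15 of *M. arvensis* were both above plants 9 and 12, which held for 49.9% of all tested transcripts. Within *M. suffruticosa*, plant 8 was the highest plant for 10 transcripts and the lowest for 19, positions it held for 30.5% and 53.9% of all tested transcripts.

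**Figure D2:**
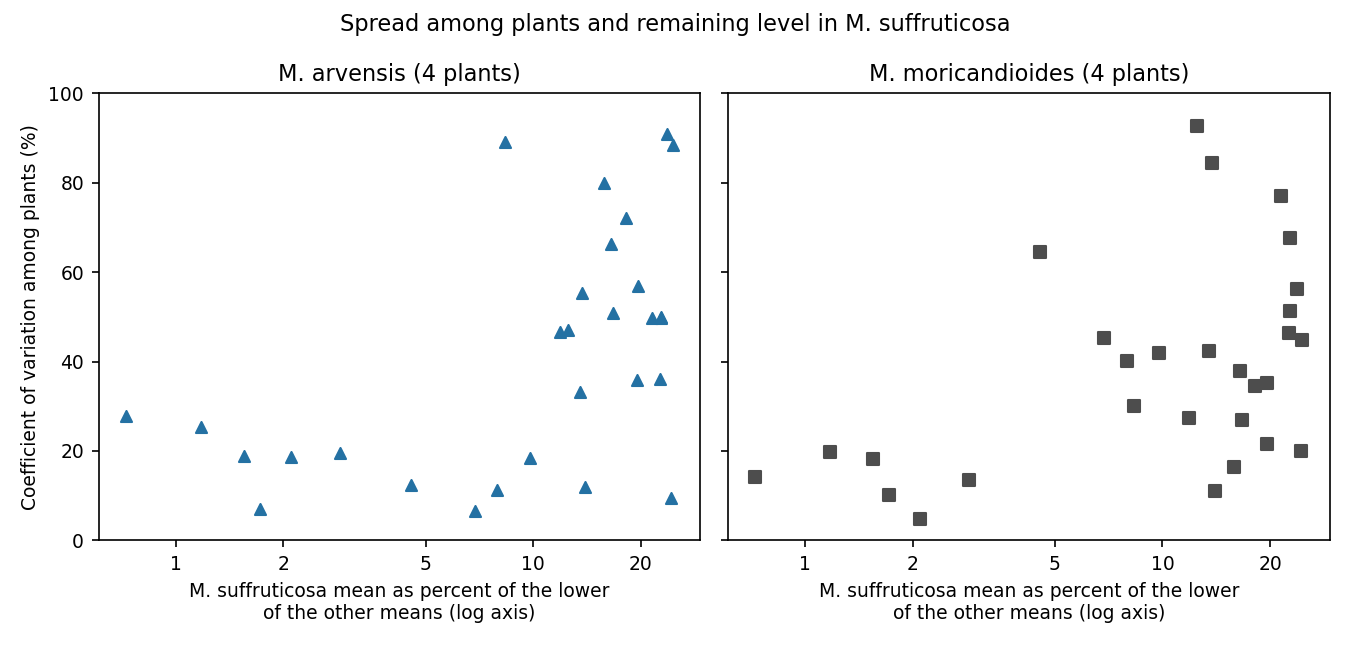
Coefficient of variation among the plants of *M. arvensis* (left) and *M. moricandioides* (right), in percent, against the mean level left in *M. suffruticosa* as percent of the lower of the other means on a log axis; each symbol is 1 of the 29 transcripts. On the left of the panels, below 5%, the symbols lie low except for HSD2 in *M. moricandioides*, while at 12.5% or more they reach above 90%.

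The rule set a floor in *M. arvensis* and in *M. moricandioides* but did not compare these species with each other, so this comparison was tested. Of the 29 transcripts, 5 had more and 1 had less transcript in *M. arvensis* than in *M. moricandioides* at an adjusted p of 0.01 or less in edgeR, and 23 did not pass. Over all 15570 tested transcripts 18.2% were higher and 16.7% lower, and over those with at least 10 rpm in both species 16% and 15.4%. The median log2 difference of the 29 transcripts was 0.19, with a range from -1.48 to 3.03, beside a median of 0.02 over all tested transcripts. Of the 6 transcripts that passed, 4 had no overlap between the plants of the compared species, which held for 89.5% of all transcripts that passed in this comparison.

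BXL1 was the most raised of these in *M. arvensis*, by 3.03 ± 0.50 on the log2 scale (SE, adjusted p = 0.000413), with means of 1029.7 ± 824 rpm in *M. arvensis* beside 109 ± 17.9 rpm in *M. moricandioides* (SD, n = 4 each, edgeR). All 4 *M. arvensis* plants were above all *M. moricandioides* plants. With the libraries of each close pair summed to 1, the difference was 2.68 (adjusted p = 0.00227). Its relative BXL2 differed by 0.44 ± 0.47 and did not pass (adjusted p = 0.464). CPI1 had 40.3 ± 3.82 rpm in *M. arvensis* beside 17.3 ± 3.45 rpm in *M. moricandioides*, a difference of 1.10 ± 0.13 (adjusted p = 4.91e-05, edgeR). AT5G54585 had 91.3 ± 10.3 rpm in *M. arvensis* beside 30.1 ± 12.0 rpm in *M. moricandioides*, a difference of 1.49 ± 0.31 (adjusted p = 0.00171). These 3 transcripts passed whichever single library was left out, with adjusted p of at most 0.00211 for BXL1, 0.00036 for CPI1 and 0.00722 for AT5G54585.

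The calls of DABB1, DIN10 and HSD2 did not hold without each single library. DABB1 was higher in *M. arvensis* by 2.13 ± 0.57 (adjusted p = 0.00798, edgeR), with 176 ± 83.0 rpm there against 39.8 ± 36.9 rpm in *M. moricandioides*. It passed no longer, at adjusted p of 0.0114 to 0.0275, without plants 9 or 12 of *M. arvensis*, plants 8, 12 or 15 of *M. moricandioides*, or any plant of *M. suffruticosa*. DIN10 was higher by 1.23 ± 0.32 (adjusted p = 0.00692), with 223 ± 113 rpm in *M. arvensis* beside 85.5 ± 23.0 rpm in *M. moricandioides*. It was lost at adjusted p of 0.0103 to 0.0268 without plants 9, 13 or 15 of *M. arvensis*, plants 8, 12 or 15 of *M. moricandioides*, or plants 6 or 7 of *M. suffruticosa*. HSD2 was lower, with a log2 difference of -1.48 ± 0.37 (adjusted p = 0.00531), with 12.8 ± 1.59 rpm in *M. arvensis* beside 33.6 ± 21.7 rpm in *M. moricandioides*. Without plants 12, 13 or 15 of *M. arvensis* or plants 8 or 15 of *M. moricandioides*, its adjusted p was 0.0116 to 0.0176. With each close pair summed, the adjusted p was 0.0115 for DABB1, 0.0316 for DIN10 and 0.0236 for HSD2.

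Some transcripts came near the threshold without passing it. AT2G24580 differed by 2.18 ± 0.62 (adjusted p = 0.0113, edgeR), with means of 75.5 ± 67.4 rpm in *M. arvensis* beside 14.2 ± 4.26 rpm in *M. moricandioides*. It passed without plant 9 of *M. arvensis*, at an adjusted p of 0.000851, and without plant 12, at 0.00714. AT1G32220 differed by -1.11 ± 0.32 (adjusted p = 0.0117), with 71.7 ± 13.3 rpm in *M. arvensis* beside 146 ± 7.01 rpm in *M. moricandioides*. Its plants did not overlap, and it passed without plant 9 of *M. arvensis* (adjusted p = 0.00177) or plant 8 of *M. suffruticosa* (0.00153). AT1G51805 differed by 1.29 ± 0.50 (adjusted p = 0.049) and passed without plant 15 of *M. moricandioides* (0.0038). At the other end, the difference was -0.01 ± 0.14 for PIP, -0.02 ± 0.21 for AT4G08320 and 0.01 ± 0.19 for AT3G61690.

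**Figure D3:**
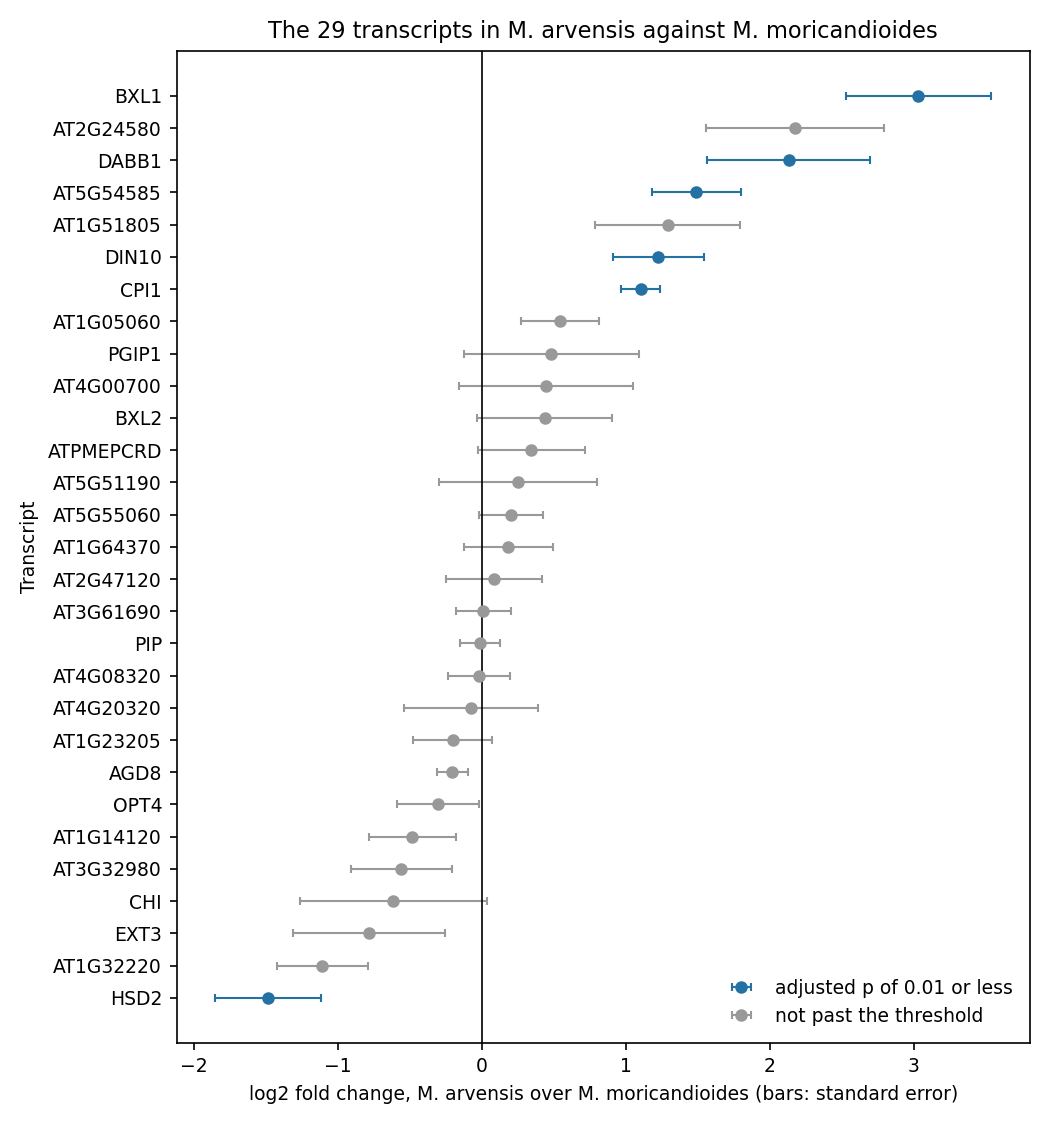
Difference of the 29 transcripts between *M. arvensis* and *M. moricandioides* as log2 fold change of the edgeR fit, positive where *M. arvensis* is higher, with bars for the standard error. Blue symbols mark the 6 transcripts at an adjusted p of 0.01 or less, which run from HSD2 at -1.48 to BXL1 at 3.03.

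Whether related genes were also low in *M. suffruticosa* was examined on the best protein match in Arabidopsis, as named in the deposited annotation, which the rule did not use. It was named for 23 of the 29 transcripts. BXL1 and BXL2 are each other's best match, so 21 matches were not among the 29. Of these, 10 were listed at 0 in all 11 libraries and 2 were too low to be tested. The share at 0 was 43.5% of the 23, beside 39.2% of the best matches of the 6223 transcripts at the floor that had one named. Reads were assigned to a reduced set of coding sequences, and 18995 of the 33602 models had any read. A silent gene and a model absent from that set cannot be told apart by a value of 0. The 9 tested matches did not move one way. Against *M. moricandioides*, 2 were higher and 1 was lower in *M. suffruticosa* at an adjusted p of 0.01 or less in edgeR, where 10.1% of all tested transcripts were higher and 8.82% lower. Against *M. arvensis*, 1 was higher and 5 were lower, where 9.92% of all were higher and 9.4% lower. Both comparisons share the *M. suffruticosa* plants. In *M. arvensis* against *M. moricandioides*, 3 of the 9 were higher and 0 lower, where 18.2% of all tested transcripts were higher and 16.7% lower.

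The match of AT3G61690, AT3G51620, which contains a substrate-binding domain of nucleotidyltransferases, had 23.2, 26.4 and 28.9 rpm in *M. suffruticosa* plants, 10.6, 16.2, 16.8 and 17.3 rpm in *M. arvensis* plants and 12.6, 11.7, 11.2 and 9.96 rpm in *M. moricandioides* plants. It was high where its partner was nearly absent, and no *M. suffruticosa* plant overlapped with another species. The difference was 1.14 ± 0.14 against *M. moricandioides* (adjusted p = 0.000143, edgeR) and 0.85 ± 0.14 against *M. arvensis* (adjusted p = 0.000923). Both calls held without any single library. The reads of the pair summed to 26.5 ± 2.63 rpm in *M. suffruticosa* plants, 39.8 ± 7.65 rpm in *M. arvensis* plants and 33.6 ± 5.10 rpm in *M. moricandioides* plants. AGD9 (AT5G46750), the match of AGD8, had 49.6, 51.5 and 42.7 rpm in *M. suffruticosa* plants, 31.8, 35.9, 43.3 and 46.5 rpm in *M. arvensis* plants and 27.5, 22.5, 32.7 and 22.5 rpm in *M. moricandioides* plants. It was higher against *M. moricandioides* by 0.78 ± 0.16 (adjusted p = 0.00301) and did not pass against *M. arvensis*, where the plants overlapped (0.34 ± 0.16, adjusted p = 0.118). The first call was lost without plant 6 (0.015) or 7 (0.0153) of *M. suffruticosa* or plant 15 of *M. moricandioides* (0.0111). AGD8 and AGD9 together summed to 53.7 ± 4.86 rpm in *M. suffruticosa* plants, 81.1 ± 11.3 rpm in *M. arvensis* plants and 70.4 ± 4.92 rpm in *M. moricandioides* plants. The *M. suffruticosa* sum was 79.0% of that of *M. moricandioides* for the pair of AT3G61690 and 76.4% for that of AGD8. For the other tested matches outside the 29 transcripts it was lower, from 10.9% (EXT3) to 44.9% (AT4G08320). Relative to *M. arvensis*, the shares were 66.6% and 66.3%, and 8.13% (DIN10) to 42.9% (AT4G08320) for the others.

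The 5 matches that were lower against *M. arvensis* belong to AT4G20320, DABB1, DIN10, EXT3 and AT5G55060. The matches of DABB1, DIN10 and AT5G55060 were also higher in *M. arvensis* than in *M. moricandioides* in edgeR. Their log2 differences were 1.43 (adjusted p = 0.00442), 2.40 (adjusted p = 7.21e-05) and 1.41 (adjusted p = 0.00447). With all libraries, none of these 3 passed in *M. suffruticosa* against *M. moricandioides*. AT1G30820, a further CTP synthase and the match of AT4G20320, had 9.91, 10.5 and 11.9 rpm in *M. suffruticosa* plants, 21.2, 35.1, 64.7 and 67.8 rpm in *M. arvensis* plants and 19.7, 30.9, 18.0 and 32.8 rpm in *M. moricandioides* plants. All *M. suffruticosa* plants were below all others, with log2 differences of -1.30 ± 0.31 against *M. moricandioides* (adjusted p = 0.00765, edgeR) and -2.01 ± 0.32 against *M. arvensis* (adjusted p = 0.000657). The call against *M. moricandioides* was lost, at adjusted p of 0.0154 to 0.0368, without plants 8 or 15 of that species or without any plant of *M. suffruticosa*. AT2G31670, the match of DABB1, had 61.2, 57.0 and 44.2 rpm in *M. suffruticosa* plants, 481, 367, 194 and 203 rpm in *M. arvensis* plants and 127, 94.9, 125 and 103 rpm in *M. moricandioides* plants. It was lower against *M. arvensis*, with a log2 difference of -2.57 ± 0.40 (adjusted p = 0.000576), and its value of -1.14 ± 0.38 against *M. moricandioides* did not pass (adjusted p = 0.0349), although it did without plant 9 of *M. arvensis* (adjusted p = 0.00555). SIP2 (AT3G57520), a raffinose family enzyme and the match of DIN10, had 9.70, 9.19 and 10.1 rpm in *M. suffruticosa* plants, 26.3, 58.6, 91.4 and 109 rpm in *M. arvensis* plants and 13.3, 16.4, 10.9 and 7.27 rpm in *M. moricandioides* plants. It was lower against *M. arvensis*, with a log2 difference of -2.76 ± 0.35 (adjusted p = 0.000167), and its difference of -0.36 ± 0.33 from *M. moricandioides* did not pass (adjusted p = 0.426).

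EXT4 (AT1G76930), the match of EXT3, ranged over 0.0708 to 0.283 rpm in *M. suffruticosa* plants, 0.548 to 9.31 rpm in *M. arvensis* plants and 0.202 to 7.24 rpm in *M. moricandioides* plants. It was lower against *M. arvensis*, with a log2 difference of -4.98 ± 1.23 (adjusted p = 0.00867, edgeR), a call that was lost at adjusted p of 0.0122 to 0.0406 without any plant of *M. suffruticosa*, plants 12, 13 or 15 of *M. arvensis*, or plants 6 or 8 of *M. moricandioides*. Its difference from *M. moricandioides* was -4.22 ± 1.25 (adjusted p = 0.0208) and passed without plant 15 of that species (0.00784). AT5G58510, the match of AT5G55060, ranged over 5.38 to 8.10 rpm in *M. suffruticosa* plants, 8.61 to 41.2 rpm in *M. arvensis* plants and 7.40 to 12.4 rpm in *M. moricandioides* plants. It was lower against *M. arvensis*, with a log2 difference of -1.83 ± 0.38 (adjusted p = 0.00344), a call lost without plant 6 (0.0204) or 7 (0.0177) of *M. suffruticosa*, and its difference of -0.43 ± 0.37 from *M. moricandioides* did not pass (adjusted p = 0.408). AT5G10730, the match of AT1G32220, had 18.2, 18.5 and 19.7 rpm in *M. suffruticosa* plants, 21.4, 27.7, 16.1 and 15.5 rpm in *M. arvensis* plants and 17.3, 19.7, 22.2 and 18.0 rpm in *M. moricandioides* plants. These plants overlapped, with differences of -0.11 ± 0.25 against *M. moricandioides* and -0.09 ± 0.25 against *M. arvensis*. The phosphatase PP5 (AT2G42810), the match of AT4G08320, had 30.6, 31.8 and 28.9 rpm in *M. suffruticosa* plants, 34.7, 39.5, 38.9 and 45.3 rpm in *M. arvensis* plants and 37.6, 43.6, 34.9 and 40.0 rpm in *M. moricandioides* plants. Its differences of -0.43 ± 0.12 against *M. moricandioides* (adjusted p = 0.0177) and -0.33 ± 0.12 against *M. arvensis* (adjusted p = 0.0541) did not pass.

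**Figure D4:**
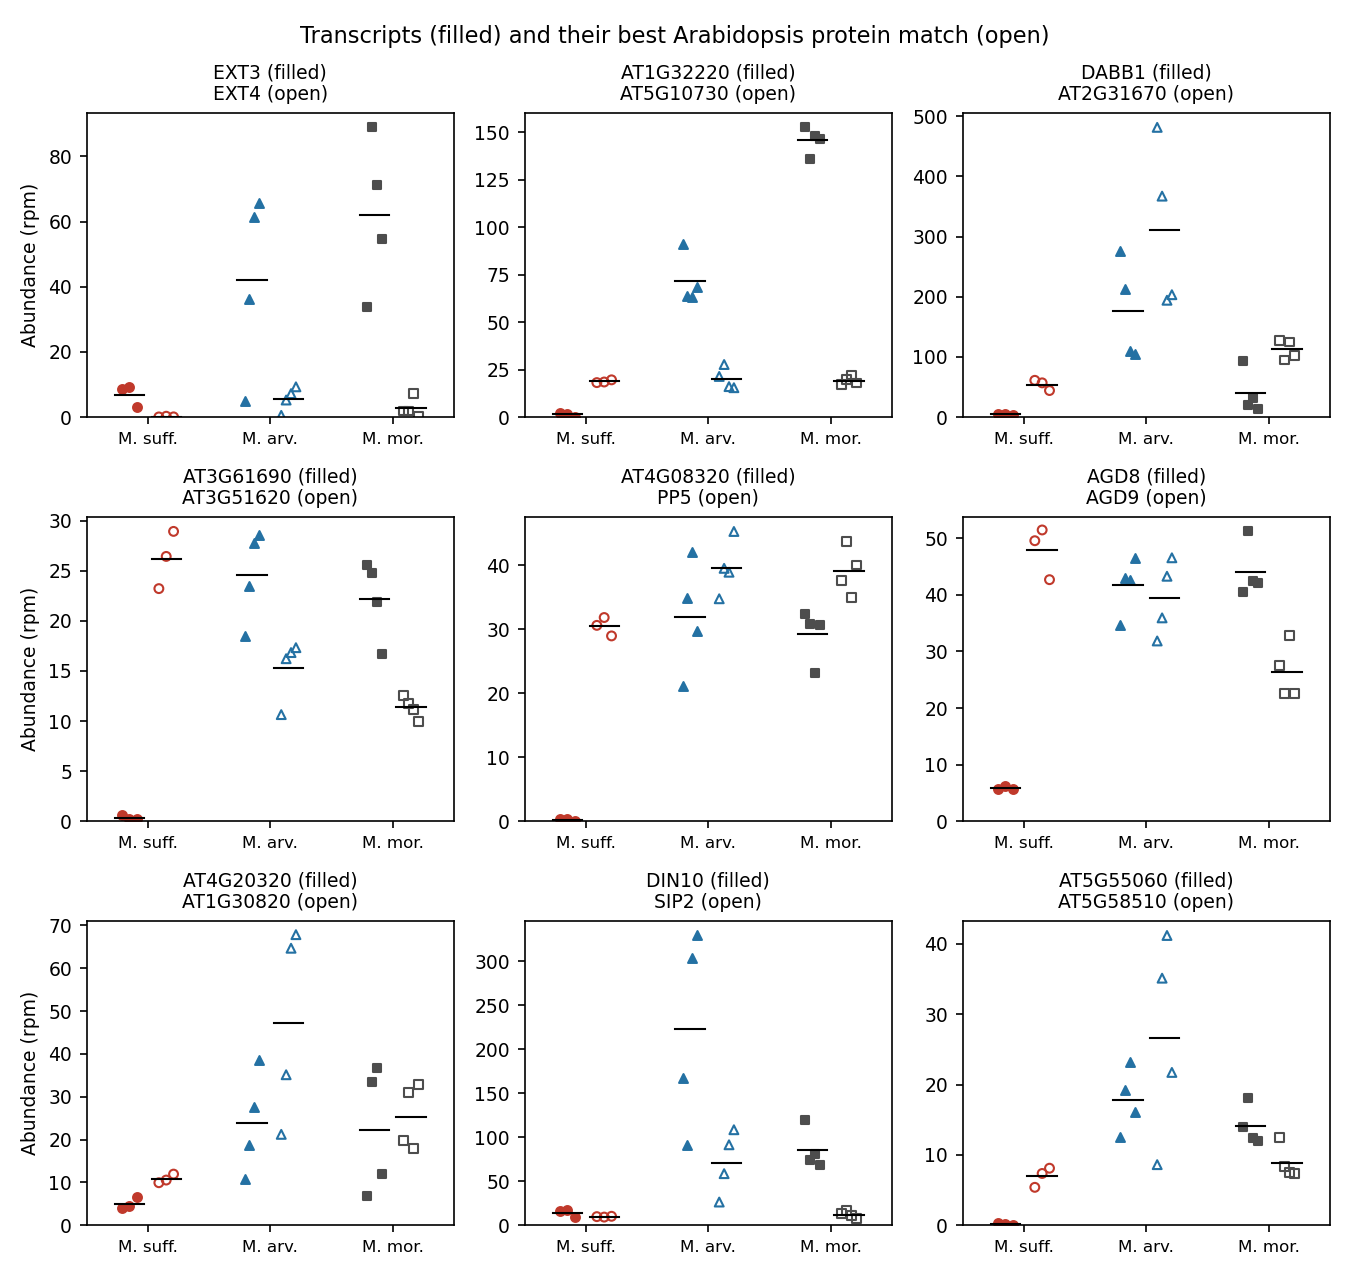
Abundance in rpm of 9 of the 29 transcripts (filled symbols) and of their best Arabidopsis protein match (open symbols) in every plant of *M. suffruticosa* (circles), *M. arvensis* (triangles) and *M. moricandioides* (squares), with lines for the species means; each panel has its own axis. The open circles of AT3G51620, at 23.2 to 28.9 rpm, lie above the open symbols of both other species, whereas those of AT1G30820, at 9.91 to 11.9 rpm, lie below them.

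When the nearest gene with the same short description was taken in place of the best match, 20 genes were named, of which 9 were listed at 0 in all libraries and 9 were tested. Against *M. moricandioides*, AGD13, a further ARF regulator, was higher in *M. suffruticosa* (0.71 ± 0.14, adjusted p = 0.00261, edgeR), and AT2G45220, of the pectin methylesterase family, was lower (-1.98 ± 0.32, adjusted p = 0.000636). AGD13 had 25.6, 27.2 and 25.7 rpm in *M. suffruticosa* plants, 25.9, 33.2, 45.1 and 41.9 rpm in *M. arvensis* plants and 13.9, 14.9, 14.3 and 17.4 rpm in *M. moricandioides* plants. Without plants 6 or 7 of *M. suffruticosa* its adjusted p was 0.0103 and 0.0122. AT2G45220 had 3.19, 3.61 and 4.73 rpm in *M. suffruticosa* plants, 3.52, 11.1, 7.45 and 10.5 rpm in *M. arvensis* plants and 19.4, 14.6, 12.4 and 11.6 rpm in *M. moricandioides* plants. Against *M. arvensis*, AT3G28200, MUR4 and SIP1 were higher and EXT4 was lower. The peroxidase AT3G28200, named beside AT3G32980, had 24.9, 29.4 and 17.7 rpm in *M. suffruticosa* plants, 2.66, 2.76, 3.87 and 4.14 rpm in *M. arvensis* plants and 40.6, 48.4, 27.5 and 27.3 rpm in *M. moricandioides* plants, a difference of 2.89 ± 0.22 from *M. arvensis* (adjusted p = 4.87e-06) and of -0.65 ± 0.20 from *M. moricandioides* (adjusted p = 0.026). MUR4 (AT1G30620), the epimerase that makes the arabinose donor of wall polymers, was named beside AT1G32220 by the shared description of a Rossmann fold. It was higher against *M. arvensis* by 1.35 ± 0.26 (adjusted p = 0.00232), though not without plant 7 of *M. suffruticosa* (adjusted p = 0.0162). Its difference of 0.36 ± 0.26 from *M. moricandioides* did not pass (adjusted p = 0.31). *M. arvensis*, with a mean of 6.44 rpm, was lower than *M. moricandioides* with 12.0 rpm (-0.99, adjusted p = 0.00575). SIP1 (AT5G40390), of the raffinose synthase family, was higher by 1.05 ± 0.26 (adjusted p = 0.00852), a call that was kept without plant 9 of *M. arvensis* and lost without any of the other 10 plants, at adjusted p of 0.011 to 0.0314.

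The wider families were drawn up by words of the short descriptions, so relatives described in other words are missing. Of these families, 8 further ARF-GAP genes were tested. AGD9 and AGD13 were the 2 that passed, both higher in *M. suffruticosa* than in *M. moricandioides*. The shares over all tested transcripts given above (10.1% higher and 8.82% lower against *M. moricandioides*, 9.92% and 9.4% against *M. arvensis*) stand beside all family counts. Among 5 further oligopeptide transporters, OPT3 and OPT5 were lower against *M. moricandioides*, with log2 differences of -1.39 (adjusted p = 5.49e-05) and -1.29 (adjusted p = 0.00191) in edgeR. The call of OPT5 was lost without plant 6 (0.0139) or 7 (0.0108) of *M. suffruticosa*. OPT3, which loads iron into the phloem in Arabidopsis, averaged 65.4 ± 2.01 rpm in *M. suffruticosa* (n = 3), 106 ± 9.86 rpm in *M. arvensis* plants and 163 ± 23.4 rpm in *M. moricandioides* (SD, n = 4 each). Against *M. arvensis*, OPT3 was also lower, at -0.65 (adjusted p = 0.00495), a call lost at adjusted p of 0.0112 to 0.0275 without any plant of *M. suffruticosa* or plants 12 or 15 of *M. arvensis*. OPT7 was higher against *M. arvensis* by 3.26 (adjusted p = 0.000645), with 44.5 ± 26.0 rpm in *M. suffruticosa* and 4.85 ± 3.80 rpm in *M. arvensis*. In *M. moricandioides* it had 39.1 ± 7.05 rpm, and the difference of 0.10 from that species did not pass (adjusted p = 0.894). *M. arvensis* was lower than *M. moricandioides*, at -3.16 (adjusted p = 0.000291). Plant 8 of *M. suffruticosa* had 14.8 rpm, beside 55.6 and 63.1 rpm in plants 6 and 7.

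Of the 21 further chitinase genes, 12 were listed at 0 in all libraries and 7 were tested, of which 1 was higher and 1 lower against *M. moricandioides* and 2 were higher against *M. arvensis*. AT4G19720, a glycosyl hydrolase with a chitinase insertion domain, had 1062, 777 and 16.9 rpm in *M. suffruticosa* plants, 7.98, 5.44, 70.6 and 63.1 rpm in *M. arvensis* plants and 21.0, 25.04, 11.4 and 17.0 rpm in *M. moricandioides* plants. It was high in the close pair of plants 6 and 7 of *M. suffruticosa*, whereas plant 8 lay within the range of the other species. The log2 differences were 4.96 against *M. moricandioides* (adjusted p = 0.00441, edgeR) and 4.20 against *M. arvensis* (adjusted p = 0.00899). The first call was lost, at adjusted p of 0.0134 to 0.0177, without plants 6 or 7 of *M. suffruticosa* or any plant of *M. moricandioides*, and the second, at 0.0119 to 0.0343, without any plant other than plant 8 of *M. suffruticosa*. POM1 (AT1G05850), a chitinase-like protein, was higher against *M. arvensis* by 1.16 (adjusted p = 0.0035), a call lost at adjusted p of 0.0105 to 0.0148 without any plant of *M. suffruticosa* or plants 12, 13 or 15 of *M. arvensis*. AT1G56680 was lower against *M. moricandioides*, at -5.05 (adjusted p = 0.00212), except without plants 6 (0.0113) or 7 (0.0112) of *M. suffruticosa*. Among 3 further CTP synthases and 3 further genes of the raffinose synthase family, those that passed were AT1G30820, SIP1 and SIP2. The only further gene described as an extensin with a number was EXT4. All of these are described above. Of 8 further hydroxysteroid dehydrogenases 2 were tested, and the lowest adjusted p was 0.0172, for AT2G43420 against *M. moricandioides* (log2 difference 1.20).

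By the words of their short descriptions, 5 of the 29 transcripts (17.2%) belonged to the cell wall group, namely EXT3, AT1G23205, ATPMEPCRD, CHI and PGIP1, beside 1.83% of the 7524 transcripts at the floor. BXL1 and BXL2 lacked these words and counted among the 16 transcripts (55.2%) outside any group, where 55.0% of the transcripts at the floor also lay. The oxidoreductases and the kinases and signalling group held 2 transcripts each, and transport, transcription, protein turnover and lipid metabolism held 1 each. An annotated location in the cell wall, the apoplast or the extracellular space was given for 6 transcripts (20.7%) beside 3.12% of those at the floor, and the chloroplast for 3 (10.3%) beside 20.1%. These shares are descriptions without a test, and the locations were chosen after the transcripts had been seen. In Arabidopsis the 29 genes lie on all 5 chromosomes, with 9, 5, 3, 4 and 8 genes on chromosomes 1 to 5.

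Of the 335 cell wall transcripts that were tested, the 5 above included, 64 (19.1%) were lower and 25 (7.46%) higher in *M. suffruticosa* than in *M. moricandioides* in edgeR, where 8.82% and 10.1% of all tested transcripts were. The number of lower ones was 26 without plant 6 and 23 without plant 7 of *M. suffruticosa*, and 21 with each close pair summed. Against *M. arvensis* the balance was the other way, with 26 (7.76%) lower and 81 (24.2%) higher, where 9.4% and 9.92% of all tested transcripts were. There, 12 were lower without plant 6 and 13 without plant 7 of *M. suffruticosa*, and the number higher was 47 without that plant 7, 53 without plant 13 and 51 without plant 15 of *M. arvensis*. Of the same group, 134 (40%) were lower and 40 (11.9%) were higher when *M. arvensis* was compared with *M. moricandioides*. Over all tested transcripts, 16.7% were lower and 18.2% higher in that comparison. None of the 32 listed genes of zinc and iron homeostasis was among the 29 transcripts. Of the 19 tested, 6 were higher and 1 was lower in *M. suffruticosa* than in *M. moricandioides*, beside 10.1% and 8.82% of all tested transcripts. Against *M. arvensis*, 1 was higher and 4 were lower, beside 9.92% and 9.4%. In *M. arvensis* against *M. moricandioides*, 9 of the 19 were higher and 1 was lower, beside 18.2% and 16.7%.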

How the data were processed

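Leaf RNA of 11 plants, with 1 library per plant, was sequenced as single-end reads of 100 bp. The authors assigned each read to a gene model by the best hit of a translated BLAT search (version not given in the sources used here) against a reduced set of TAIR10 coding sequences of Arabidopsis, and deposited the raw count and the rpm per model and plant. The percent of mapped reads was deposited by the authors, and 1 entry that matched no plant was not used. The deposited log2 fold changes and p-values of the authors' own comparisons were not used, nor were columns named as means, which hold sums.

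The rule was applied to the deposited rpm. Tests were run on the deposited counts with edgeR 4.0.16 in R 4.3.3 (limma 3.58.1), using filterByExpr with a minimum count of 10, TMM scaling, a quasi-likelihood F test over all 11 libraries with a term per species, and Benjamini-Hochberg adjustment over all 15570 tested transcripts, at a threshold of 0.01. All 29 transcripts passed the filter. Standard errors were derived from the F statistic. Python 3.11.15 (pandas 2.3.3, numpy 2.4.6) and matplotlib 3.10.9 were used for summaries and plots, and DESeq2 1.42.0 as an alternative. The fit was tested on simulated data. P-values measure the spread between plants of a single seed source per species. Counts per library ranged from 10987959 to 14865167, and the smallest of these limits the precision of the low levels.

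The transcripts, gene lists and rules were chosen with earlier results of these data known. The rule for named genes took the 10 transcripts with the highest floor, the 10 with the smallest share left in *M. suffruticosa*, those with at most 3 reads there (there were none), the strongest calls between *M. arvensis* and *M. moricandioides*, up to 3 per description group, those beside the threshold, and the paralogues with the largest change against *M. moricandioides*. The remaining members, the best matches that did not pass and the further family members were named after their values were seen. With no protein table, the closest relative was the gene with the same short description and the nearest locus number, as planned. The best match from the deposited annotation was added after the data were seen. Marker lists covered leaf, vascular, guard, epidermal, dividing, root, flower and seed cells.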

Additional observations from a re-analysis of the deposited data

Results flagged for a closer look

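In groups of 4 plants, a single plant stood far from the others for 2 of the 58 groups tested by Dixon's ratio, the gap to the nearest plant divided by the range. For AT5G51190, the ethylene response factor, plant 9 of *M. arvensis* lay far below the other plants of its species, with a ratio of 0.907. For AGD8, plant 8 of *M. moricandioides* lay above the others of its species, with a ratio of 0.830. By chance alone about 1 in 20 groups is expected to stand out in this way.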

How the results depend on the processing

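The alternatives that summed or averaged the close pairs, and all those for best matches and the cell wall group, were chosen after the data were seen. BLASTP alternatives, with other identity limits, were not run, since no protein table was given. The cause of the changes below was not tested. The 29 transcripts became 48 when up to 1 in 3 of each other mean was allowed, 56 with a floor of 5 rpm and 14 when every plant had to meet the rule, and 26 to 32 without single plants. Of the 5 transcripts higher in *M. arvensis* than in *M. moricandioides*, 3 remained in number with close pairs summed, 3 in pairwise fits and 3 to 5 without single plants. The 1 lower became 2 in DESeq2, 2 at an adjusted p of 0.05, 0 with close pairs summed and 0 to 2 without single plants.

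Of the best matches, 2 were higher in *M. suffruticosa* than in *M. moricandioides*, against 1 with close pairs summed and 1 to 2 without single plants. The 1 lower became 4 in DESeq2, 4 at 0.05, 2 in pairwise fits, 0 with close pairs summed, 0 with library totals and 0 to 2 without single plants. Against *M. arvensis* the 5 lower became 2 with close pairs summed and 3 to 5 without single plants, and the 1 higher stayed at 1 without any single plant. For the paralogues by description, the 1 higher against *M. moricandioides* became 0 with close pairs summed, 0 with the next closest gene and 0 to 1 without single plants. The 1 lower became 3 in DESeq2, 2 in pairwise fits, 4 at 0.05, 0 with the next closest gene and 1 to 2 without single plants. Against *M. arvensis* the 3 higher became 1 with close pairs summed, 0 with the next closest gene and 1 to 3 without single plants, and the 1 lower became 2 in DESeq2, 4 at 0.05, 0 with close pairs summed, 0 with the next closest gene and 0 to 2 without single plants.

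Plants with the same number did not deviate together, with correlations of -0.021 for plants 6 and 0.027 for plants 8 of *M. suffruticosa* and *M. moricandioides*, and 0.013 for plants 12 and 0.005 for plants 15 of *M. arvensis* and *M. moricandioides*. With the plant number as a replicate block, 1 of the 29 transcripts was higher and 0 were lower in *M. arvensis* against *M. moricandioides*. Few degrees of freedom remained in that fit, and *M. suffruticosa* and *M. arvensis* shared no plant number. The counts of calls under the block therefore cannot serve as a check of the main fit. The block left 0 best matches higher and 0 lower against either species, and likewise 0 paralogues higher and 0 lower. In the cell wall group it left 3 lower and 3 higher against *M. moricandioides*, and 0 of either kind against *M. arvensis*. At an adjusted p of 0.05, 102 of this group were lower and 49 higher against *M. moricandioides* and 45 lower against *M. arvensis*, and DESeq2 called 40 lower against *M. arvensis*. With close pairs summed, 30 were higher and 11 lower there.

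The sign changed for some differences near 0, none of which passed the threshold. AT5G10730 was at 0.0687 against *M. moricandioides* and 0.28 against *M. arvensis* with the replicate block, and from -0.247 to 0.086 against *M. arvensis* without single plants. Between *M. arvensis* and *M. moricandioides*, PIP was at 0.00543 with close pairs summed and 0.11 with library totals, AT4G08320 at 0.13 with library totals and 0.00214 with the replicate block, and AT3G61690 at -0.00987 in DESeq2, -0.0104 with RLE size factors and -0.022 with close pairs summed. Without single plants, PIP ranged from -0.0882 to 0.0153, AT4G08320 from -0.132 to 0.0387 and AT3G61690 from -0.111 to 0.0655. At the depth of these libraries, the 7 to 63 reads behind the lowest *M. suffruticosa* levels limit their precision.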
